A study of Mus musculus with 199 samples.

Results

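RNA sequencing of neutrophils sorted from the livers of mice with carcinogen- and diet-induced liver cancer compared animals given 2 drugs together with animals given none. The libraries were chosen by title, which names both drugs for 8 liver neutrophil libraries (the combination) and none for 6 (untreated), so 14 of the 199 libraries of the series enter the main comparison. All mice were male wild-type C57BL/6 from an in-house colony, and all, the untreated ones included, had received DEN ALIOS. DEN is diethylnitrosamine, a carcinogen activated in the liver, and ALIOS is a high-fat diet with added sugar. The combination was CXCR2i, which blocks the chemokine receptor CXCR2 of neutrophils, with aPD1, an antibody against the checkpoint receptor PD-1. Liver neutrophils of mice given CXCR2i alone (10 libraries, 4 of them also labelled with an isotype control for aPD1) or aPD1 alone (5 libraries) and blood neutrophils of the same animals served for the further comparisons. Of the 6 untreated libraries 1 was labelled Vehicle, untreated library 3. No source used here gives ages, doses or treatment times. The cells were sorted by flow cytometry for Ly6G, with high purity by the labels. Titles place their source in the liver, whereas the protocol speaks of tumours, so liver below means the source as titled. The 14 libraries came from 14 different animals, so that p-values measure the spread between animals.

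Gene counts ranged from 580113 to 8603634 per library in the combination group (median 4944790) and from 3076407 to 5400410 in the untreated group (median 3902100). Untreated libraries all belonged to sequencing run set A, a pair of runs named in the library labels, and the combination libraries were split into 5 of run set A and 3 of run set B. Run set was therefore a term of the fit, and results within run set A are given beside it. Combination libraries 1, 2 and 4 held 73.3%, 86.2% and 53.7% unaligned entries, against 20.0% to 43.0% in untreated libraries, and combination library 2 was the shallowest. Libraries 1, 2 and 4 are 3 of the 5 combination libraries of run set A. Comparisons within run set A therefore do not separate treatment from the unaligned share. Untreated library 2 stood apart, with 41.2% of its gene counts from mitochondrially encoded genes against 4.87% to 14.8% in the 8 combination libraries and 7.80% to 14.4% in the other untreated ones. Untreated libraries 2 and 5 also held the T cell gene *Cd3e* at 47.4 and 57.4 CPM (counts scaled to a common library size), more than any other of the 14. In aPD1 libraries 2 and 4 it reached 94.4 and 236 CPM. Combination library 2, aPD1 libraries 2 and 4 and untreated libraries 2 and 5 are called the shallow or mixed libraries below (under 1000000 gene counts or over 20 CPM of *Cd3e*), and a count without them leaves out all 5. Without them more genes were called over the whole set too, as given in the section on processing. Larger list counts in that setting are to be read beside this general rise. Counts without the libraries with over 50% unaligned entries leave out combination libraries 1, 2 and 4, CXCR2i libraries 2 and 3 and aPD1 library 1. All 8 neutrophil markers examined, *Ly6g*, *S100a8*, *S100a9*, *Csf3r*, *Cxcr2*, *Retnlg*, *Mmp9* and *Itgam*, were detected in all 14 libraries, and their summed level was 12340 to 52170 CPM in combination libraries and 2647 to 31720 CPM in untreated ones, lowest in untreated library 2.

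Neutrophils are made in the bone marrow, where precursors fill their granules in a fixed order as they mature. Azurophil (primary) granules come first, specific (secondary) granules follow at the myelocyte and metamyelocyte stages under the transcription factor C/EBP epsilon, and gelatinase granules come last. Granule protein genes are largely switched off before the cell leaves the marrow, so that mature cells carry the proteins but few of the transcripts. In tissue, neutrophils respond to cytokines, microbial products and damaged cells by NF-kB-driven transcription of cytokines and chemokines, and CXCR2 is the main receptor by which they follow such chemokines out of the blood.

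Below, levels are CPM after TMM scaling, and differences are log2 fold changes, combination minus untreated, ± standard error from edgeR's quasi-likelihood test. Rose and fell are used for an adjusted p under 0.05 by the Benjamini-Hochberg method. Of 11945 genes tested 1288 passed (10.8%), 676 higher (5.66%) and 612 lower (5.12%), and 1081 of them changed by more than 2-fold. The median over all genes was -0.13. Within run set A, with 5 combination and 6 untreated libraries, 222 of 9155 genes passed (2.42%), 191 higher (2.09%) and 31 lower (0.339%), and 221 of these were called with the same sign in the full comparison. In simulated data of this design the test recovered 56.2% of 4-fold changes and 5.3% of 2-fold changes, so a gene that did not pass may still differ. Combination and untreated levels did not overlap in 217 genes (1.82%), 199 of them higher (1.67%) and 18 lower (0.151%) in the combination group.

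The genes of the specific granule were higher in neutrophils of combination-treated livers. Of 15 measured members 13 rose, against 5.66% of all genes, and none fell, with a median log2 fold change of 3.75. In 11 of the 15 every combination library was above every untreated one, against 1.67% of all genes. Within run set A 10 of the 15 rose, against 2.09% of the genes tested there. Leaving out any of the 14 libraries gave 11 to 14 that rose, leaving out the shallow or mixed libraries gave 15 and leaving out those with over 50% unaligned entries gave 12. The 15 genes together summed to 15430 to 53730 CPM in combination libraries and 787.7 to 6885 CPM in untreated ones.

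The promoters of 3 of the leading genes and the search of all 15 for sites of the C/EBP family are given with the values. The 300-base windows run from 250 bases before to 50 after the start of the gene in RefSeq's annotation of GRCm38.p6. The motif searched was TTGCNNAA or its reverse TTNNGCAA, a site of C/EBP factors, on both strands, and it is in capitals. *Ltf* (window chr9:111019042-111019341, plus strand) holds 1 match beginning 75 bases before the start, *Ngp* (chr9:110419558-110419857, plus strand) 2 matches at 138 and 11 bases before it, and *Fcnb* (chr2:28084829-28085128, minus strand) 2 matches at 235 and 123 bases before it.
Ltf: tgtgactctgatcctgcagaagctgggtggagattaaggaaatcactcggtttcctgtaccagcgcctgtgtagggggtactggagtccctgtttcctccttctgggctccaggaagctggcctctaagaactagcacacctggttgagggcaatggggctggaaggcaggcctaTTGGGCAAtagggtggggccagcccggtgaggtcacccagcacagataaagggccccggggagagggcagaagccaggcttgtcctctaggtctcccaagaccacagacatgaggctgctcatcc
Ngp: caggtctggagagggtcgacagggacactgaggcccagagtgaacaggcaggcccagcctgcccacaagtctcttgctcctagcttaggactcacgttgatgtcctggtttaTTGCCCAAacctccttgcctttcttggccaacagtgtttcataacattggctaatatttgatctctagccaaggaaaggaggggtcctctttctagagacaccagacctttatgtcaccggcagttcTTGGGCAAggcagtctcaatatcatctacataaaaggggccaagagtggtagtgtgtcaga
Fcnb: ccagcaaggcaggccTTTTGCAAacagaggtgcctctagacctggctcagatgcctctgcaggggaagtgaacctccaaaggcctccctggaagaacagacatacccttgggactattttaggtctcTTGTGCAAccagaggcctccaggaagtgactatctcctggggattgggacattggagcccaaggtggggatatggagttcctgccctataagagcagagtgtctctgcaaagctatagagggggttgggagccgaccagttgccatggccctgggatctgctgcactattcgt
Of the 14 specific granule genes with a window in the table, 5 (35.7%) held a match, namely *Ltf*, *Ngp*, *Fcnb*, *Lcn2* and *Mmp8*. Among all 32851 windows 3547 (10.8%) did, and among 27025 genes with a window 12.2%. *Camp*, the gene with the largest change of the list, had no such letters in its window.

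*Ltf* encodes lactoferrin, an iron-binding protein of the specific granule (chromosome 9, 111019271 to 111042767, plus strand of GRCm38). It had 4858 to 16190 CPM (median 11810) in combination libraries and 47.8 to 1312 CPM (median 242) in untreated ones, so the lowest combination library was above the highest untreated one (log2 fold change 4.79 ± 0.88, adjusted p = 0.00132). *Camp* (chromosome 9, 109847379 to 109849617, minus strand), the precursor of the antimicrobial peptide cathelicidin, had 552 to 1707 CPM (median 1090) in combination libraries and 3.76 to 117 CPM (median 16.5) in untreated ones (5.04 ± 0.92, adjusted p = 0.00143). *Ngp* (chromosome 9, 110419747 to 110423012, plus strand), the neutrophilic granule protein, had 4794 to 16190 CPM (median 11350) in combination libraries and 55.5 to 1379 CPM (median 340.1) in untreated ones (4.57 ± 0.85, adjusted p = 0.00153). All 3 were lowest among combination libraries in library 2 or in a library of run set B. Untreated library 1 was the highest of its group for all 3 genes and untreated library 2 or 4 the lowest. Within run set A the changes were 4.92 ± 0.84 (adjusted p = 0.00597) for *Ltf*, 5.26 ± 0.82 (adjusted p = 0.00538) for *Camp* and 4.69 ± 0.82 (adjusted p = 0.00676) for *Ngp*.

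*Fcnb*, which encodes ficolin B, a lectin that starts the complement cascade, reached 8.52 to 35.6 CPM (median 20.8) in combination libraries and 0 to 3.12 CPM (median 0.966) in untreated ones (4.58 ± 0.78, adjusted p = 0.000886). *Chil3*, the chitinase-like protein Ym1, had 279.6 to 1014 CPM (median 455) in combination libraries and 2.63 to 63.9 CPM (median 26.2) in untreated ones (4.39 ± 0.76, adjusted p = 0.000917). Its close copies in the genome make that value less certain. *Cd177*, a surface glycoprotein stored in specific granules, showed 384 to 2284 CPM (median 1131) in combination libraries and 16.4 to 208 CPM (median 90.0) in untreated ones (3.80 ± 0.70, adjusted p = 0.00144). The groups were apart in each of these 3 genes. Other members that rose were the siderophore-binding protein gene *Lcn2* (2.70 ± 0.71), the neutrophil collagenase gene *Mmp8* (2.41 ± 0.63), the integrin gene *Itgb2l* (3.96 ± 0.78), the lipid transporter gene *Abca13* (3.75 ± 0.69), *Ceacam10* (2.25 ± 0.64), the lysozyme gene *Lyz2* (1.94 ± 0.49) and the haptoglobin gene *Hp* (1.41 ± 0.42). The call was lost for *Ceacam10* without combination library 3 (adjusted p up to 0.0681) and for *Hp* without combination library 3 or 4 or untreated library 5 (adjusted p up to 0.0871). The members that did not pass were *Pglyrp1*, a peptidoglycan-binding protein (1.45 ± 0.55, adjusted p = 0.084), and *Olfm4* (1.71 ± 0.66, adjusted p = 0.0879).

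**Figure D1:**
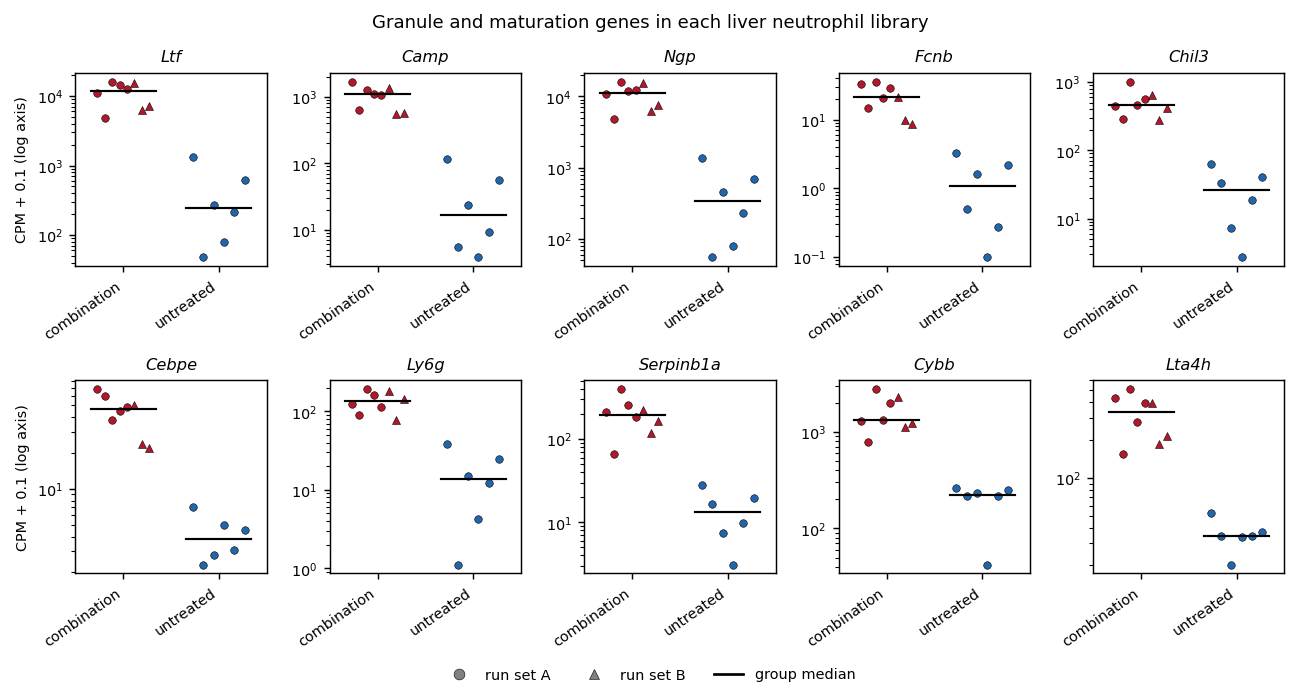
Level of 10 granule, maturation and oxidase genes in each liver neutrophil library, in CPM + 0.1 on a log axis, with the combination group left of the untreated group, circles for run set A, triangles for run set B and bars for medians. In *Ltf*, *Camp*, *Ngp*, *Fcnb*, *Chil3*, *Cebpe*, *Ly6g*, *Serpinb1a* and *Cybb* every combination library lies above every untreated one.

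Earlier and later granules did not move in the same way across their lists. Of 6 tested azurophil granule genes 1 rose, against 5.66% of all genes (median 1.53). It was *Serpinb1a*, an inhibitor of the granule serine proteases, which had 65.2 to 399.5 CPM (median 196) in combination libraries and 3.01 to 27.8 CPM (median 13.1) in untreated ones (log2 fold change 4.03 ± 0.59, adjusted p = 0.000165), with no overlap. The azurophil enzymes themselves were scarce. *Mpo*, myeloperoxidase, had 0 to 8.69 CPM (median 2.27) in combination libraries and 0 to 2.28 CPM (median 0.174) in untreated ones and did not pass (2.46 ± 1.13, adjusted p = 0.153), and *Elane*, neutrophil elastase, was at most 1.94 CPM in combination libraries and at 0 in all 6 untreated ones. In the gelatinase granule and secretory vesicle list 2 of 12 rose, *Qsox1*, a sulfhydryl oxidase (2.68 ± 0.53), and *Mmp25*, a membrane-bound metalloproteinase (1.92 ± 0.58), whose call was lost without combination library 3 or 4 or untreated library 4 or 5 (adjusted p up to 0.0879). The median of that list was 0.79, and 5.66% of all genes rose. Without the shallow or mixed libraries 1 of 6 azurophil granule genes rose, and 4 of 12 genes of the gelatinase granule list rose and 1 fell.

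*Cebpe* encodes C/EBP epsilon, the factor needed for specific granules in mice and humans (chromosome 14, 54710360 to 54712174, minus strand). It had 68.7, 59.4, 37.5, 45.3, 48.1, 50.02, 23.8 and 21.8 CPM in combination libraries 1 to 8 and 6.94, 2.23, 2.67, 4.89, 2.98 and 4.4 CPM in untreated libraries 1 to 6 (log2 fold change 3.72 ± 0.57, adjusted p = 0.000277). All 8 combination libraries were above all 6 untreated ones, and libraries 7 and 8, of run set B, were the lowest of the 8. Within run set A the change was 3.75 ± 0.35 (adjusted p = 0.000127). *Ly6g*, the gene of the antigen used for the sort (chromosome 15, 75155240 to 75159126, plus strand), had 125, 89.8, 194, 161, 115, 181, 78.6 and 144 CPM in combination libraries 1 to 8 and 37.8, 1.01, 14.9, 4.14, 12.1 and 24.4 CPM in untreated libraries 1 to 6 (3.17 ± 0.72, adjusted p = 0.0072). The groups did not overlap here either, although every cell was sorted for the protein. In bulk samples, a larger share of cells with a transcript and more of it per cell cannot be told apart.

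Of the 14 granulocyte transcription factors tested 2 rose, against 5.66% of all genes, and none fell (median -0.44). Beside *Cebpe* this was *Myb*, a factor of dividing progenitors (1.70 ± 0.54, adjusted p = 0.0436), whose call was kept in 4 of the 14 comparisons that left out a library and was lost without combination library 1, 3, 5, 6, 7 or 8 or untreated library 3, 4, 5 or 6 (adjusted p up to 0.0853). Without the shallow or mixed libraries 3 rose and 3 fell. Of the 16 genes of the mature neutrophil *Ly6g* alone rose, none fell, and the median was -0.24. Without the shallow or mixed libraries 2 of them rose and 4 fell.

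Part of the cell cycle genes were higher. Of 29 tested 12 rose, against 5.66% of all genes, and none fell, with a median of 2.1. The largest changes were those of the kinetochore gene *Cenpf* (log2 fold change 3.23 ± 0.72, adjusted p = 0.00673), *Hmmr* (2.80 ± 0.74, adjusted p = 0.0173) and the kinesin gene *Cenpe* (2.74 ± 0.77, adjusted p = 0.025). *Cenpf* had 17.7 to 118 CPM (median 73.9) in combination libraries and 0 to 21.7 CPM (median 6.62) in untreated ones, so that combination library 8 alone lay within the untreated range. *Mki67*, the Ki-67 antigen of dividing cells, had 82.8 to 508 CPM (median 248) in combination libraries and 8.28 to 153 CPM (median 40.3) in untreated ones (2.58 ± 0.65, adjusted p = 0.0134), with the highest untreated value in library 2. Others that rose were the topoisomerase gene *Top2a* (2.49 ± 0.74), the cyclin gene *Ccnb2* (2.15 ± 0.65) and the kinase genes *Aurka* (2.1 ± 0.51) and *Plk1* (2.25 ± 0.65). The replication clamp gene *Pcna* (-0.89 ± 0.32, adjusted p = 0.0664) did not pass. The count was 2 of 24 within run set A, against 2.09% of the genes tested there, 3 of 29 with no run set term and 1 of 30 without the libraries with over 50% unaligned entries, against 20 of 27 (and 1 that fell) without the shallow or mixed ones. It was 6 without combination library 3 or untreated library 1 or 4 and 7 without combination library 1. With 1 library left out, *Cenpe* did not pass without combination library 1 or 3 or untreated library 1 or 3 (adjusted p up to 0.0531). *Top2a* did not pass without combination library 1, 3 or 4 or untreated library 1, 3, 4 or 6 (adjusted p up to 0.0627). *Ccnb2* did not pass without combination library 3 or 4 or untreated library 1, 4 or 5 (adjusted p up to 0.071). *Plk1* did not pass without combination library 3 or untreated library 1, 4, 5 or 6 (adjusted p up to 0.0631).

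The oxidase that makes superoxide in the phagosome was also higher. *Cybb*, its membrane-bound catalytic subunit (chromosome X, 9435252 to 9487771, minus strand), had 786 to 2775 CPM (median 1311) in combination libraries and 42.2 to 259.7 CPM (median 224) in untreated ones (log2 fold change 3.06 ± 0.53, adjusted p = 0.000917), with no overlap and untreated library 4 far below the others of its group. Of 12 genes of the oxidase and nitric oxide list 6 rose and 1 fell (median 0.65), against 5.66% and 5.12% of all genes. *Cyba*, the partner subunit of *Cybb* (1.03 ± 0.29), the proton channel gene *Hvcn1* (1.59 ± 0.40), the peroxiredoxin gene *Prdx5* (1.45 ± 0.36) and the glutathione peroxidase gene *Gpx1* (0.77 ± 0.23) rose, and the catalase gene *Cat* fell (-1.51 ± 0.39). The call was lost for *Cyba* without combination library 3 or 4 or untreated library 5 (adjusted p up to 0.0715), for *Gpx1* without combination library 3 or 4 or untreated library 4 (adjusted p up to 0.0685) and for *Cat* without untreated library 2 (adjusted p up to 0.0676). *Nos2*, inducible nitric oxide synthase, had 0.374 to 65.8 CPM (median 11.1) in combination libraries and 0.702 to 8.28 CPM (median 1.03) in untreated ones (3.52 ± 1.06, adjusted p = 0.0328). Its groups overlapped and its call was lost without combination library 3 or 4 or untreated library 1, 2, 3, 5 or 6 (adjusted p up to 0.0849). The count of genes that rose was 1 of 12 within run set A, 3 without combination library 3 or 4, 5 without the shallow or mixed libraries, and 2 without the libraries with over 50% unaligned entries.

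Cytokine and chemokine genes were lower in neutrophils of combination-treated livers. Of 17 tested inflammatory cytokine genes 9 fell, against 5.12% of all genes, and none rose, with a median of -2.20. *Cxcl3*, a chemokine that binds CXCR2, had 2.86, 2.9, 13.2, 0, 18, 9.42, 23.2 and 12.3 CPM in combination libraries 1 to 8 and 50.7, 9.11, 2070, 1273, 20.9 and 21.1 CPM in untreated libraries 1 to 6 (log2 fold change -5.92 ± 1.37, adjusted p = 0.00842). Untreated libraries 3 and 4 were far above the other 4, and untreated library 2 was below 5 of the combination libraries. Untreated library 3 is the one labelled Vehicle. *Il1a*, the cytokine interleukin 1 alpha, had 0 to 27.3 CPM (median 6.38) in combination libraries and 10.5 to 316 CPM (median 59.8) in untreated ones (-3.91 ± 0.88, adjusted p = 0.0072), again highest in untreated libraries 3 and 4. *Ptgs2*, which encodes the prostaglandin-forming enzyme cyclooxygenase 2 (chromosome 1, 150100031 to 150108227, plus strand), had 367, 424, 862, 372, 1222, 1356, 2605 and 2518 CPM in combination libraries 1 to 8 and 7349, 653, 3449, 4463, 2579 and 4378 CPM in untreated libraries 1 to 6 (-2.37 ± 0.62, adjusted p = 0.0166). Here untreated libraries 2 and 5 lay within the combination range, and the run set B combination libraries 7 and 8 stood above the other 6.

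Other members that fell were the chemokine genes *Ccl3* (-3.07 ± 0.81) and *Ccl4* (-2.94 ± 0.73), the interleukin 23 subunit gene *Il23a* (-3.56 ± 0.91), the interleukin 1 receptor antagonist gene *Il1rn* (-2.81 ± 0.68) and the growth factor genes *Csf1* (-2.25 ± 0.67) and *Lif* (-2.20 ± 0.69). With 1 library left out, *Csf1* did not pass without combination library 1, 3 or 4 or untreated library 1 or 3 (adjusted p up to 0.0722). *Lif* did not pass without combination library 1, 3 or 4 or untreated library 1, 3 or 4 (adjusted p up to 0.0864). The other main inflammatory genes did not pass, among them *Cxcl2* (-1.98 ± 0.76, adjusted p = 0.0865), *Tnf* (-1.48 ± 0.65, adjusted p = 0.138) and *Il1b* (-1.35 ± 0.59, adjusted p = 0.135). The window of *Cxcl3* (chr5:90785851-90786150 of GRCm38.p6, plus strand) is shown because it belongs to the gene with the largest fall of the list, with its NF-kB-type motif, searched on both strands as GGGA, any base and TTTCC, in capitals.
Cxcl3: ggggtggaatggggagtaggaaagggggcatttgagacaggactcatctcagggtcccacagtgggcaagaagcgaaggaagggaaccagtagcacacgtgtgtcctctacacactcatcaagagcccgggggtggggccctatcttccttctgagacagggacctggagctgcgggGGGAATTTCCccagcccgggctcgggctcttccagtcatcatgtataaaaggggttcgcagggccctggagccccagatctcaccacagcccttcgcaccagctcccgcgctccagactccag
The match begins 73 bases before the start. Of 13 cytokine genes with a window, 5 (38.5%) held the motif (*Cxcl1*, *Cxcl2*, *Cxcl3*, *Il6* and *Csf1*). Among all 27025 genes with a window 126 (0.466%) did, and among all 32851 windows 135 (0.411%). Only *Cxcl3* and *Csf1* of these 5 genes fell, and *Il6* held 0 or 1 count in each of the 14 libraries, too few to show a fall.

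Within run set A the list's median was -2.23 and 1 of 15 tested genes fell, *Ptgs2*, which changed by -2.59 ± 0.57 (adjusted p = 0.0292). The count was 7 to 12 when any single library was left out, 12 of 16 without the shallow or mixed libraries and 0 of 17 without those with over 50% unaligned entries (median -1.80). With the library numbers of the titles as a replicate block it was 2 of 17.

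**Figure D2:**
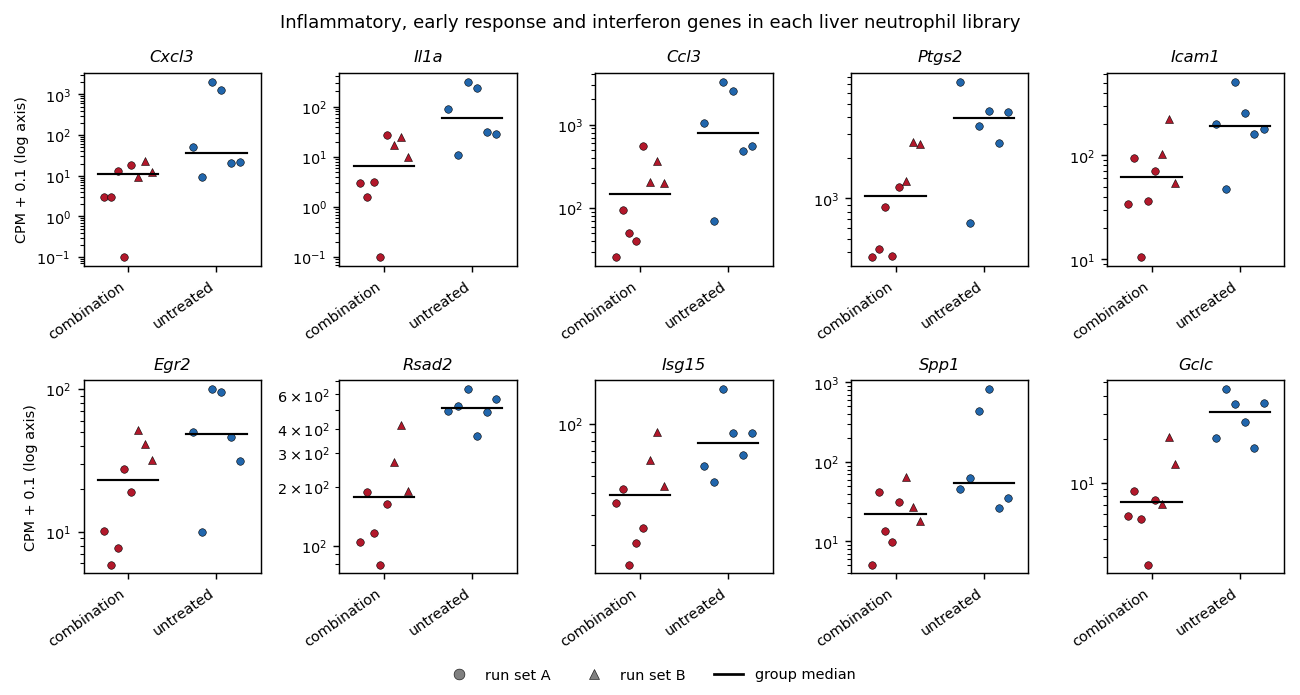
Level of 10 inflammatory, early response, interferon-stimulated and metabolic genes in each liver neutrophil library, in CPM + 0.1 on a log axis, with the combination group left of the untreated group, circles for run set A, triangles for run set B and bars for medians. Untreated libraries 3 and 4 hold the highest *Cxcl3*, *Il1a* and *Spp1*, the groups overlap in all 10 genes, and the combination median lies below the untreated one in each.

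NF-kB targets and feedback genes fell in 4 of 18 cases, against 5.12% of all genes, and none rose (median -1.04). *Icam1*, an adhesion molecule, had 10.4 to 226 CPM (median 62.3) in combination libraries and 47.2 to 512 CPM (median 191) in untreated ones (-2.34 ± 0.54, adjusted p = 0.00771). The others were *Traf1* (-1.81 ± 0.52), *Relb* (-1.23 ± 0.40) and *Nfkb2* (-1.04 ± 0.34), an adaptor and 2 NF-kB subunits. The call was lost for *Traf1* without combination library 1, 3 or 4 or untreated library 1 (adjusted p up to 0.0668), for *Relb* without combination library 1, 3, 4 or 8 or untreated library 1, 3, 4 or 6 (adjusted p up to 0.0859) and for *Nfkb2* without combination library 1, 3, 4 or 8 or untreated library 1, 3 or 4 (adjusted p up to 0.0944). The count was 0 within run set A, 14 without the shallow or mixed libraries and 2 without those with over 50% unaligned entries. It was 1 without combination library 1, 3 or 4 or untreated library 1, 2 without combination library 8 or untreated library 3 or 4, 8 without combination library 5 and 9 without untreated library 2.

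Immediate early genes, which cells switch on within minutes of a stimulus or of handling, fell in 5 of 18 cases, against 5.12% of all genes, with a median of -1.48, and none rose. These were the zinc finger genes *Egr2* (-2.02 ± 0.54) and *Egr3* (-2.06 ± 0.59), the phosphatase gene *Dusp2* (-1.96 ± 0.51), *Fosb* (-1.89 ± 0.62) and the nuclear receptor gene *Nr4a2* (-1.86 ± 0.60). *Egr2* had 5.79 to 51.1 CPM (median 23.1) in combination libraries and 9.92 to 100.1 CPM (median 48.2) in untreated ones. With 1 library left out, *Egr3* did not pass without combination library 4 or untreated library 3 (adjusted p up to 0.0589). *Nr4a2* did not pass without combination library 1, 3, 5, 7 or 8 or untreated library 4 or 5 (adjusted p up to 0.113). The call of *Fosb* was kept in 3 of the 14 comparisons that left out a library (adjusted p up to 0.106). None of the 18 was called within run set A, 11 fell without the shallow or mixed libraries, and 3 fell without those with over 50% unaligned entries. The count was 3 without any one of combination libraries 1, 3, 4, 7 and 8 or untreated libraries 4 and 5, and 11 without untreated library 2.

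Interferon-stimulated genes were lower by a smaller amount. Of 24 tested 4 fell, against 5.12% of all genes, none rose, and 23 had a negative log2 fold change (median -0.74, against -0.13 over all genes). *Rsad2*, the antiviral protein viperin (chromosome 12, 26442746 to 26456452, minus strand), had 104, 189.7, 116, 79.7, 165, 270.3, 416 and 191 CPM in combination libraries 1 to 8 and 495, 522, 641, 367, 485 and 567 CPM in untreated libraries 1 to 6 (log2 fold change -1.88 ± 0.43, adjusted p = 0.00685). Combination library 7, of run set B, alone lay within the untreated range. *Isg15*, a ubiquitin-like modifier (-1.57 ± 0.43, adjusted p = 0.0199), *Ifit2* (-1.53 ± 0.36) and the RNA sensor gene *Ifih1* (-0.87 ± 0.27) also fell. The call was lost for *Isg15* without combination library 3 or 4 (adjusted p up to 0.0549) and for *Ifih1* without combination library 2, 3, 4 or 8 or untreated library 3, 5 or 6 (adjusted p up to 0.0879). The count was 2 of 22 within run set A, against 0.339% of the genes tested there. It was 2 without combination library 3 or 4 or without the libraries with over 50% unaligned entries, 7 without combination library 2, 8 without untreated library 2 and 9 without the shallow or mixed libraries.

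Of 14 genes reported for tumour-associated neutrophils 2 fell and 1 rose (median -0.96), against 5.12% and 5.66% of all genes. *Spp1*, the secreted protein osteopontin (chromosome 5, 104435118 to 104441050, plus strand), had 5.01 to 63.9 CPM (median 22.2) in combination libraries and 26.2 to 827 CPM (median 54.3) in untreated ones (-3.69 ± 0.76, adjusted p = 0.00332), with untreated libraries 3 and 4 far above the rest and the groups overlapping. *Hilpda*, a lipid droplet protein induced by hypoxia, fell (-2.61 ± 0.79, adjusted p = 0.0332), a call that was lost without combination library 1 or 4 or untreated library 3 or 4 (adjusted p up to 0.142). *Lgals3*, galectin 3, rose (1.04 ± 0.29, adjusted p = 0.0246), a call that was lost without combination library 3 or 4 or untreated library 5 (adjusted p up to 0.0628). The count that fell was 0 within run set A, 8 without the shallow or mixed libraries, 6 without untreated library 2, 5 without combination library 2, and 1 without combination library 1 or 4 or untreated library 3 or 4. *Cd274*, the ligand of PD-1, had 21.1 to 378 CPM (median 107) in combination libraries and 76.8 to 682 CPM (median 336) in untreated ones and did not pass (-1.68 ± 0.61, adjusted p = 0.0727).

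The receptors that the drugs act on did not pass the test. *Cxcr2* had 423 to 1405 CPM (median 1102) in combination libraries and 134 to 1545 CPM (median 1119) in untreated ones (log2 fold change -0.21 ± 0.55, adjusted p = 0.846), with untreated library 2 well below all the others. *Pdcd1*, the gene of PD-1, was near the limit of detection, at 0 to 4.34 CPM (median 0.325) in combination libraries and 0 to 11.8 CPM (median 1.16) in untreated ones (-2.70 ± 1.44, adjusted p = 0.227). *Cxcr1*, the related receptor (0.06 ± 0.72, adjusted p = 0.969), *Cxcr4*, the bone marrow retention receptor (-1.10 ± 0.50, adjusted p = 0.152), and *Csf3r*, the receptor of the granulocyte growth factor (-1.12 ± 0.58, adjusted p = 0.207), did not pass either. Of 16 chemoattractant and adhesion receptors 2 rose and 1 fell (median -0.63), against 5.66% and 5.12% of all genes. *Ltb4r1*, the high-affinity receptor of leukotriene B4, had 18.8 to 89.7 CPM (median 54.7) in combination libraries and 1.62 to 23.6 CPM (median 15.1) in untreated ones (2.00 ± 0.53, adjusted p = 0.0176). *S1pr4*, a sphingosine 1-phosphate receptor (1.49 ± 0.41, adjusted p = 0.0199), rose, a call lost without combination library 3 or 4 (adjusted p up to 0.0675). The chemerin-binding receptor gene *Ccrl2* fell (-2.1 ± 0.63, adjusted p = 0.0327), a call lost without combination library 1, 3 or 4 or untreated library 6 (adjusted p up to 0.0715). Of 16 cytokine receptors 1 fell, the interferon receptor subunit gene *Ifnar1* (-1.07 ± 0.28, adjusted p = 0.0158). None of 16 pattern and Fc receptors and none of 18 antigen presentation genes was called. The numbers that fell were larger without untreated library 2, at 3 chemoattractant, 4 cytokine and 3 pattern receptors and 1 antigen presentation gene, and without the shallow or mixed libraries, at 6, 6, 5 and 2.

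Few genes of the metabolic and housekeeping lists passed, and over all genes 5.66% rose and 5.12% fell. Of 21 glycolysis and hypoxia genes 2 rose (median -0.09), the hexokinase gene *Hk2* (0.94 ± 0.27) and the lactate dehydrogenase gene *Ldha* (0.99 ± 0.28), the second lost without combination library 3 or untreated library 5 (adjusted p up to 0.0789). Of 20 nuclear-encoded respiratory chain genes 3 rose (median 0.48), led by *Cox4i1* (1.08 ± 0.21). Of 19 genes of endoplasmic reticulum chaperones and stress 2 rose, the asparagine synthetase gene *Asns* (1.26 ± 0.37) and the chaperone gene *Dnajb11* (0.82 ± 0.24). Of 20 ribosomal protein genes *Rps9* rose (0.77 ± 0.20) and 2 fell, *Rpl10* (-1.0 ± 0.27) and *Rpl13* (-1.43 ± 0.43), and of 11 heat shock genes *Hspe1*, a mitochondrial chaperonin, fell (-2.55 ± 0.79). The call of *Asns* was lost without combination library 3 or 5 or untreated library 2 or 4 (adjusted p up to 0.102) and that of *Dnajb11* without combination library 1, 3, 4 or 6 or untreated library 3 or 4 (adjusted p up to 0.109). That of *Rpl13* was lost without combination library 3 or 4 or untreated library 1, 2 or 4 (adjusted p up to 0.114) and that of *Hspe1* without combination library 3, 4 or 5 or untreated library 2, 3 or 5 (adjusted p up to 0.102). Leaving out 1 library gave 0 to 2 endoplasmic reticulum genes that rose and 0 to 3 that fell, and 1 to 4 glycolysis and 2 to 4 respiratory chain genes that rose. Among 18 apoptosis and survival genes the pro-apoptotic gene *Bad* rose (1.75 ± 0.42), while the survival gene *Bcl2a1b* (-2.74 ± 0.76), which has near-identical copies, and the pro-apoptotic gene *Pmaip1* (-1.54 ± 0.48) fell. The call of *Bcl2a1b* was lost without combination library 3 or untreated library 3 (adjusted p up to 0.0548) and that of *Pmaip1* without combination library 1, 3 or 4 or untreated library 1, 3 or 4 (adjusted p up to 0.0861). Without the shallow or mixed libraries 6 ribosomal protein genes rose and 1 fell, 5 respiratory chain genes rose, 3 endoplasmic reticulum genes rose and 4 fell, and 6 apoptosis and survival genes fell.

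**Figure D3:**
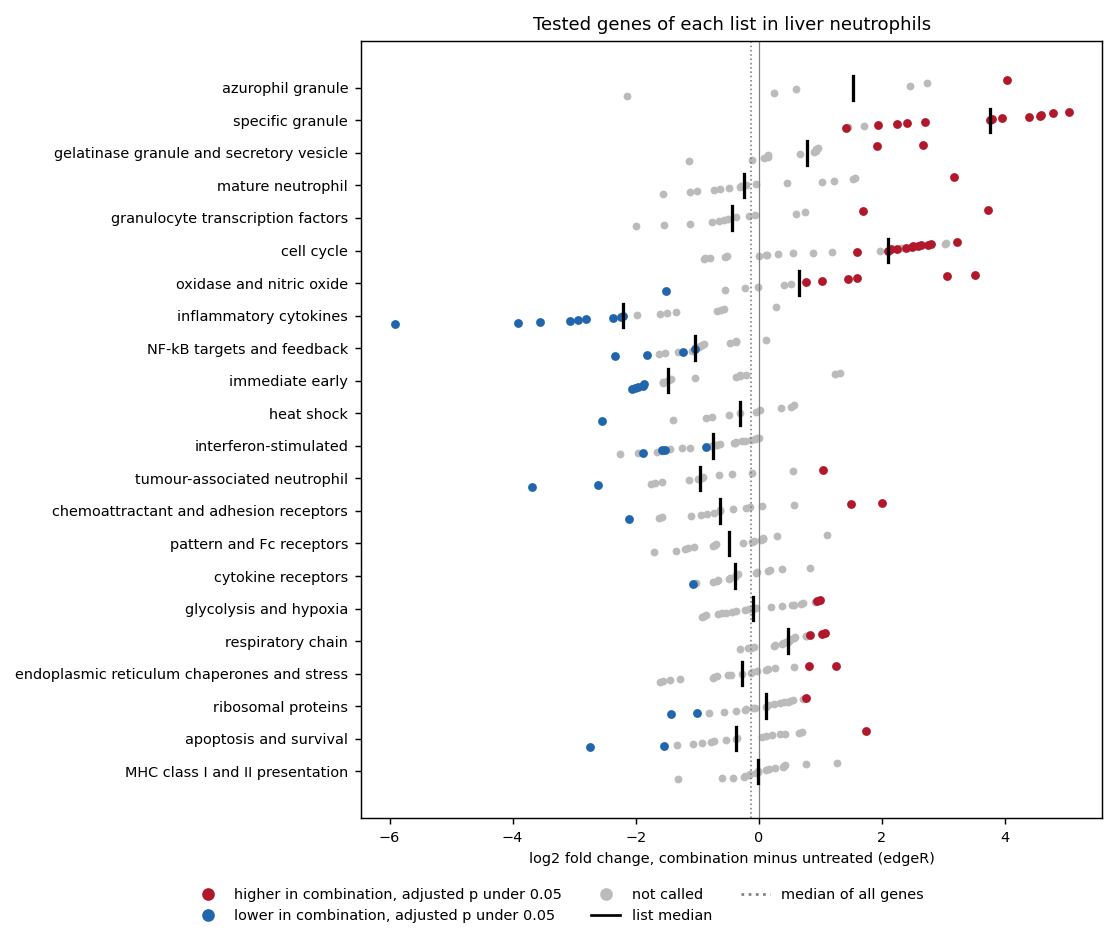
Log2 fold change, combination minus untreated, of the tested members of each functional gene list, with a dot for each gene and a bar for the list's median. Specific granule genes lie highest with a median of 3.75 and inflammatory cytokine genes lowest with a median of -2.20.

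The largest rises and falls that were also called within run set A included genes outside the neutrophil lists. *Acvrl1*, a receptor of the TGF-beta family, had 79.6 to 414 CPM (median 198) in combination libraries and 7.29 to 22.6 CPM (median 9.92) in untreated ones (4.30 ± 0.53, adjusted p = 3.85e-05), and *Tnnt1*, a troponin of slow skeletal muscle, rose by 4.74 ± 0.71, adjusted p = 0.000193. The largest rise of all, that of *Caskin2* (6.84 ± 1.29, adjusted p = 0.00176), rested on part of the libraries, with 2206, 203, 0.529, 350.3, 130.5, 4.93, 2.54 and 4.33 CPM in combination libraries 1 to 8 and at most 8.4 CPM in untreated ones. Combination libraries 3, 6, 7 and 8 lay within the untreated range for it. *Gclc*, the rate-limiting enzyme of glutathione synthesis, had 5.73, 8.69, 5.46, 2.57, 7.49, 6.95, 20.8 and 13.3 CPM in combination libraries 1 to 8 and 20.5, 45, 35.5, 26.4, 17.2 and 35.8 CPM in untreated libraries 1 to 6 (log2 fold change -2.39 ± 0.39, adjusted p = 0.000503). Combination library 7 alone lay within the untreated range for *Gclc*, whose change within run set A was -2.27 ± 0.42 (adjusted p = 0.00929). *Mreg* (-3.61 ± 0.73, adjusted p = 0.00285), the fungal pattern receptor gene *Clec4n* (-2.65 ± 0.56, adjusted p = 0.00419) and the small nucleolar RNA host gene *Snhg15* (-2.60 ± 0.56, adjusted p = 0.00489) fell as well.

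Transcripts of other cell types were present in the sorted cells and differed between the groups. B cell markers fell in 9 of 10 cases, against 5.12% of all genes (median -4.82). Their summed levels were 0.374 to 26.5 CPM in combination libraries and 4.14 to 570 CPM in untreated ones. The high untreated values were those of libraries 2, 5 and 6. T and NK cell markers fell in 5 of 14 cases, against the same 5.12% (median -3.83). They summed to 4.12 to 73.9 CPM in combination libraries and 9.93 to 597 CPM in untreated ones, highest in untreated libraries 2 and 5. The count of T and NK cell markers that fell was 3 without untreated library 2 or 5 and 3 to 6 over all single libraries left out, and that of B cell markers was 6 to 10. Of the defining T cell markers, *Cd3e* was at 0 in 3 combination libraries and 1 untreated library. Without the shallow or mixed libraries 3 of 10 B cell markers and 1 of 6 tested T and NK cell markers fell, the second list then with a median of 0.41. The part of these cells in the changes above was not tested. Without the same libraries, where more genes were called over the whole set too, all 15 specific granule genes rose and 12 of 16 inflammatory cytokine genes fell. These counts do not test the part of those cells.

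Endothelial markers fell in 3 of 10 cases, against 5.12% of all genes. They were *Kdr* (-2.98 ± 0.84), *Ptprb* (-2.94 ± 0.83) and *Cdh5* (-2.61 ± 0.76). Summed levels of the list were 21.9 to 240 CPM in combination libraries and 68.5 to 360 CPM in untreated ones. With 1 library left out, *Kdr* did not pass without combination library 3 or 4 (adjusted p up to 0.0573) and *Ptprb* did not without combination library 3 or 4 or untreated library 6 (adjusted p up to 0.0575). The call of *Cdh5* was lost without combination library 3 or untreated library 6 (adjusted p up to 0.0711). That count was 0 without combination library 3 and 1 without untreated library 6, 2 of 9 within run set A and 2 of 10 without the shallow or mixed libraries. None of 11 hepatocyte markers was called (54 to 475 CPM in combination libraries and 71.3 to 832 CPM in untreated ones). Macrophage markers summed to 127 to 1173 CPM (median 856) in combination libraries and 278 to 801 CPM (median 547) in untreated ones. Of 13 tested *Cd163* alone fell, a gene at 0 in 7 combination libraries and 2 untreated ones. Of 9 monocyte and dendritic cell markers the monocyte gene *Ly6c2* rose (2.34 ± 0.51, adjusted p = 0.00492) and the dendritic cell gene *Clec9a* fell (-2.20 ± 0.62, adjusted p = 0.0243), a call lost without combination library 3 or 4 or untreated library 2 (adjusted p up to 0.0552). *Prg2*, an eosinophil granule protein, rose (4.68 ± 1.26, adjusted p = 0.0197) through combination libraries 1, 2 and 4, the ones above the highest untreated value, and its call was lost without combination library 4 (adjusted p up to 0.0803). Platelet and erythroid markers held no call, although erythroid markers reached 3.81 to 2444 CPM in combination libraries and 39.6 to 11110 CPM in untreated ones.

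The combination was also set against each drug alone in liver neutrophils, which asks whether the second drug changed expression beyond the first. The same fit held all 29 liver neutrophil libraries. Against CXCR2i alone no gene of 11945 passed with edgeR (0%), with 488 at an unadjusted p under 0.05 and 1 called by DESeq2. *Ltf* had 4858 to 16190 CPM (median 11810) under the combination, 516 to 17020 CPM (median 5995) under CXCR2i alone, 35 to 996 CPM (median 270.5) under aPD1 alone and 47.8 to 1312 CPM (median 242) in untreated livers. Its difference between the combination and CXCR2i alone was 0.86 ± 0.82, adjusted p = 0.922, so that a shift of this size lies within the spread of the libraries. *Cebpe* had 21.8 to 68.7 CPM (median 46.7) under the combination, 2.95 to 64.9 CPM (median 13.7) under CXCR2i alone, 0.38 to 7.25 CPM (median 3.6) under aPD1 alone and 2.23 to 6.94 CPM (median 3.69) in untreated livers (combination minus CXCR2i 1.53 ± 0.55, adjusted p = 0.917). The CXCR2i libraries spread over the ranges of both the combination and the untreated libraries for these genes.

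Against aPD1 alone 53 genes were higher in the combination group and none was lower (0.444% of those tested), with 360 genes lower at an unadjusted p under 0.05. Of the 15 specific granule genes 6 were among the 53. *Ltf* exceeded its level under aPD1 alone by 4.77 ± 0.98, adjusted p = 0.0257, *Camp* by 4.65 ± 1.01, adjusted p = 0.0376, *Cebpe* by 3.30 ± 0.63, adjusted p = 0.0257 and *Serpinb1a* by 3.95 ± 0.66, adjusted p = 0.0246. *Ly6g* had 78.6 to 194 CPM (median 135) under the combination, 15.2 to 207 CPM (median 75) under CXCR2i alone, 1.29 to 49.6 CPM (median 7.62) under aPD1 alone and 1.01 to 37.8 CPM (median 13.5) in untreated livers (combination minus aPD1 2.88 ± 0.79, adjusted p = 0.114). Under aPD1 alone the medians of *Ltf* and *Cebpe* given above lay close to those of untreated livers, and all aPD1 libraries came from run set B. The T cell gene *Cd3e* was high in aPD1 libraries 2 and 4, as given above, and the part of those cells in these differences was not tested. No gene was called without any one of aPD1 libraries 1, 2 and 4, without the shallow or mixed libraries (aPD1 libraries 2 and 4 among them), without those with over 50% unaligned entries or with the title number as a replicate block, and 17 were without aPD1 library 5. Within run set B, which holds all 5 aPD1 libraries and 3 combination libraries, 17 genes were higher.

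None of the genes that fell against untreated livers was called lower than under either drug alone. *Cxcl3* had 0 to 23.2 CPM (median 10.9) under the combination, 3.29 to 50.1 CPM (median 14.1) under CXCR2i alone, 4 to 209.7 CPM (median 16.8) under aPD1 alone and 9.11 to 2070 CPM (median 35.9) in untreated livers, and the combination differed by -0.24 ± 1.16, adjusted p = 0.982 from CXCR2i alone and by -2.70 ± 1.31, adjusted p = 0.534 from aPD1 alone. *Rsad2* had 79.7 to 416 CPM (median 177) under the combination, 106 to 442 CPM (median 216) under CXCR2i alone, 65 to 474 CPM (median 312) under aPD1 alone and 367 to 641 CPM (median 508) in untreated livers, with differences of 0.12 ± 0.42, adjusted p = 0.973 from CXCR2i alone and -0.07 ± 0.46, adjusted p = 0.963 from aPD1 alone. For both genes the medians of all 3 treated groups were below that of untreated livers. Tested by themselves against untreated livers, CXCR2i alone gave 17 calls (0.142%), of which 13 were higher (0.109%) and 4 lower (0.0335%), and aPD1 alone none (676 at an unadjusted p under 0.05). Run set A, which held all untreated libraries, held 1 CXCR2i library and no aPD1 library, so few calls here do not show a lack of change. These comparisons share the untreated libraries with that of the combination, so that their values are given side by side and not as independent support.

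**Figure D4:**
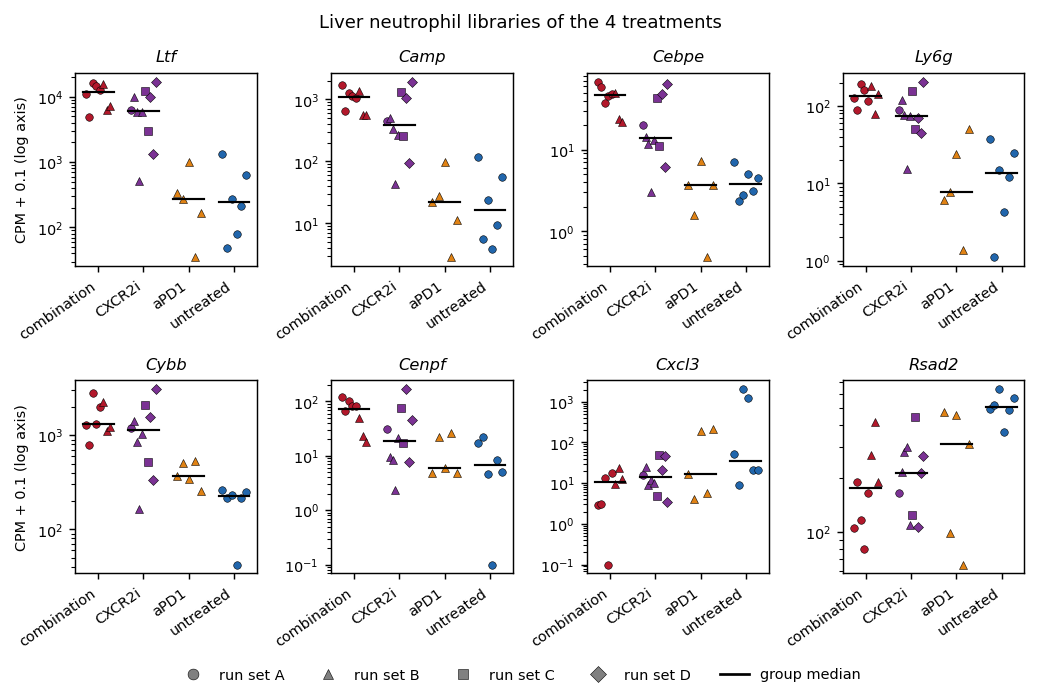
Level of 8 genes in liver neutrophils of the combination, CXCR2i, aPD1 and untreated groups, from left to right, in CPM + 0.1 on a log axis, with a point for each library (circles, triangles, squares and diamonds for run sets A, B, C and D) and bars for medians. For *Ltf*, *Camp*, *Cebpe* and *Ly6g* the combination median is highest, the CXCR2i libraries spread widely, and the aPD1 libraries lie near the untreated ones.

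Blood neutrophils of the same 14 animals allowed the change in the liver to be set against that in the circulation. With the animal as a block, the combination minus untreated change differed between liver and blood in 530 of 12831 genes (4.13%), 294 with a higher and 236 with a lower value in liver (2.29% and 1.84%), and 354 of them were also called with the same sign in the liver itself. The levels that follow were scaled over the liver and blood libraries together. *Cebpe* had 21.7 to 64.7 CPM (median 44.5) in combination livers, 2.34 to 6.71 CPM (median 3.73) in untreated livers, 3.55 to 12.7 CPM (median 5.48) in combination blood and 2.63 to 8.91 CPM (median 5.5) in untreated blood. Blood levels of the 2 groups overlapped, while those in liver did not, and the liver minus blood difference was 3.73 ± 0.56, adjusted p = 0.000857. *Ly6g* had 77.9 to 188 CPM (median 130.5) in combination livers, 1.06 to 36.6 CPM (median 13.4) in untreated livers, 12.8 to 109.6 CPM (median 49.2) in combination blood and 17.2 to 58.2 CPM (median 25.5) in untreated blood (difference 3.13 ± 0.86, adjusted p = 0.0381). *Cybb* had 743 to 2687 CPM (median 1233) in combination livers, 39.8 to 252 CPM (median 226) in untreated livers, 43.4 to 418 CPM (median 278) in combination blood and 60.6 to 114 CPM (median 92.4) in untreated blood (difference 2.08 ± 0.56, adjusted p = 0.0304).

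Of the specific granule genes, 5 of 15 changed more in liver than in blood and the other 10, including those with the largest liver changes, did not pass. *Cd177* (3.36 ± 0.72, adjusted p = 0.00918), *Lyz2* (3.19 ± 0.53, adjusted p = 0.0012), *Lcn2* (2.71 ± 0.76, adjusted p = 0.038), *Mmp8* (2.60 ± 0.68, adjusted p = 0.0281) and *Ceacam10* (2.76 ± 0.68, adjusted p = 0.022) were the 5. *Ltf*, in contrast, had 4593 to 15680 CPM (median 11360) in combination livers, 50.2 to 1268 CPM (median 239.6) in untreated livers, 145 to 2704 CPM (median 1354) in combination blood and 22.4 to 152 CPM (median 32.5) in untreated blood, so that it was also higher in combination blood, and the difference was 0.81 ± 0.92, adjusted p = 0.664. *Camp* had 546 to 1607 CPM (median 1040) in combination livers, 3.55 to 113 CPM (median 16.2) in untreated livers, 14.2 to 246 CPM (median 98) in combination blood and 1.88 to 17.8 CPM (median 2.74) in untreated blood (difference 1.21 ± 0.90, adjusted p = 0.466). For both genes the lowest combination blood sample lay within the range of untreated blood and the medians were far apart.

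Among the lower genes, *Icam1* had 10.1 to 223 CPM (median 61.5) in combination livers, 49.6 to 501 CPM (median 189) in untreated livers, 7.36 to 22.1 CPM (median 12.7) in combination blood and 9.55 to 21.1 CPM (median 15) in untreated blood (difference -1.92 ± 0.50, adjusted p = 0.0274), and *Gclc* had 2.39 to 20.6 CPM (median 6.93) in combination livers, 17.3 to 47.2 CPM (median 29.8) in untreated livers, 4.29 to 6.45 CPM (median 5.46) in combination blood and 1.32 to 6.11 CPM (median 4.95) in untreated blood (difference -2.65 ± 0.46, adjusted p = 0.00154). Both were lower in combination than in untreated livers by their medians, while their blood levels overlapped. None of the 17 inflammatory cytokine genes and none of the 24 interferon-stimulated genes passed the test of the difference, with list medians of -2.01 and -0.69 against -0.29 over all genes. The largest negative differences were those of lymphocyte genes, such as *Fcmr* (-8.85 ± 2.31, adjusted p = 0.0299), *Cd3e* (-8.31 ± 2.35, adjusted p = 0.047) and *Il7r* (-7.41 ± 2.05, adjusted p = 0.0381), and *Cd3e* was highest in untreated liver libraries 2 and 5, as given above. The largest positive ones were *Tnnt1* (3.89 ± 1.02, adjusted p = 0.028), the mitotic ubiquitin-conjugating enzyme gene *Ube2c* (3.89 ± 1.15, adjusted p = 0.0496) and *Cebpe*. For *Mki67* the difference was 1.92 ± 0.69, adjusted p = 0.111. With the animals of run set A alone 139 genes passed, and 656 did without the animals that had a shallow or mixed library.

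**Figure D5:**
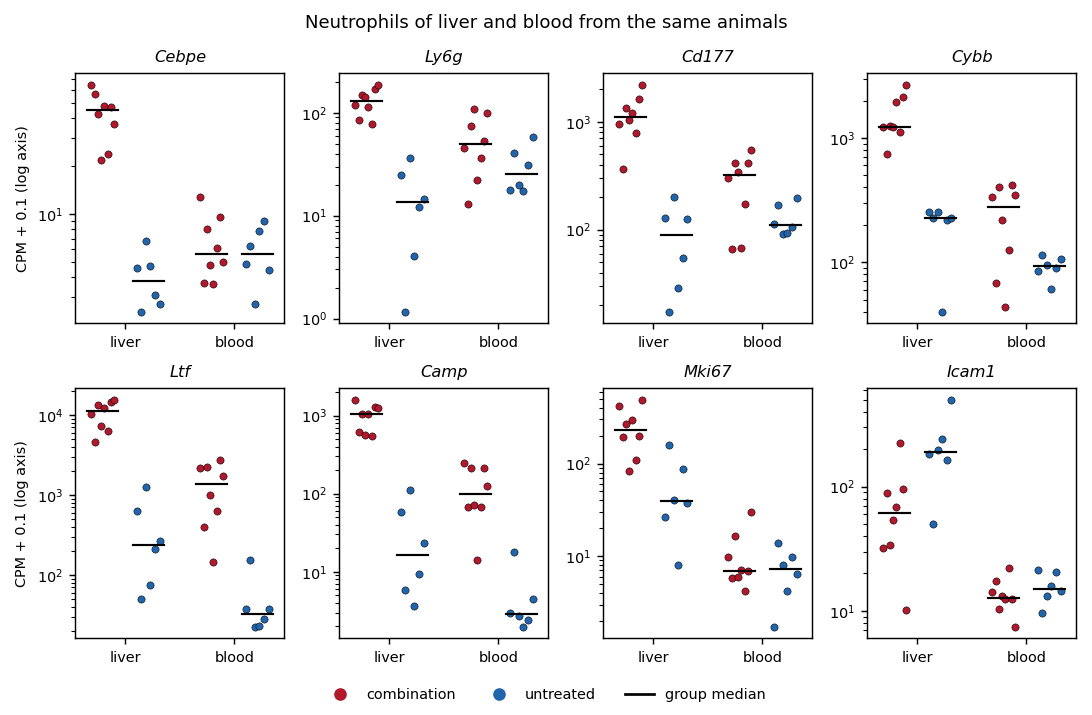
Level of 8 genes in liver and blood neutrophils of the same animals, in CPM + 0.1 on a log axis scaled over both sources. The combination group is left of the untreated group within each source, with a circle for each library and bars for medians. Run sets are not marked. *Cebpe* is high in combination livers alone, whereas *Ltf* and *Camp* have higher medians in the combination group in both liver and blood.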

How the data were processed

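Neutrophil RNA was sequenced from low-input stranded total RNA libraries, per the labels' protocols. The deposited table holds raw read counts for 37713 Ensembl genes, of which 37607 were matched to a symbol. Per the submitters' processing notes, the tools included HISAT2 2.1.0 and HTSeq 0.11.2 with FastQC 0.11.8 and Trim Galore 0.6.4, and the build was GRCm38. Strand setting and annotation release being not given in the sources used here, values of near-identical copies and of genes overlapping on opposite strands are uncertain. HTSeq summary entries (70.6% of entries in liver neutrophils) were left out. A count of 0 allows up to 3 counts, which is 0.349 CPM in the deepest and 5.17 CPM in the shallowest of the 14 libraries, for counting error only.

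Groups came from titles, and run sets and animals from library names. edgeR 4.0.16 in R 4.3.3 was run on all 29 liver neutrophil libraries with group and run set as terms, TMM factors and robust quasi-likelihood fits, after filterByExpr at a minimum total of 15 and a minimum count of 10. The standard error is the fold change over the root of F. Liver minus blood differences were fitted on 58 libraries of 29 animals with the animal as a block and liver-specific treatment and run set terms. The test was checked on simulated counts of 11945 genes with 200 changed. Library pairs within groups differed beyond sampling noise (lowest chi-square per degree of freedom 11.2). The members and gene lists were chosen with earlier results of these data known, so counts over lists are descriptions. Named genes were a fixed set of receptors and markers with *Cebpe*, from each list the largest changes among called members (up to 3, or 2 by smallest p in a list without calls), then the 8 largest rises and falls also called within run set A with a mean of at least 10 CPM, and the 5 largest changes each way in the liver minus blood difference. Predicted, immunoglobulin, T cell receptor, ribosomal, mitochondrially encoded and pseudogenes were left out of the largest changes. Further list members, *Mki67* among them, were chosen after their values were seen. Positions are from GENCODE M21, and sequences from RefSeq's GRCm38.p6. Tried besides were RLE factors, DESeq2 1.42.0, no filter, other run terms, parts of the libraries, the title number as a block and each library left out.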

Additional observations from a re-analysis of the deposited data

Results flagged for a closer look

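A sample stood far from the others of its group in 19 of 272 gene and group pairs examined on log2(CPM + 1), where chance marks about 1 in 20. Combination library 1 was low in *Ifnar1* (36.5 CPM). Combination library 2 was low in *Ly6c2* (10.1 CPM) and high in *Cd3e* (5.79 CPM). Combination library 4 was low in *Relb* (5.14 CPM). Combination library 7 was high in *Reln* (2.19 CPM). Combination library 8 was high in *Cd163* (0.978 CPM). Untreated library 1 was high in *Prg2* (7.64 CPM) and *Acvrl1* (22.6 CPM). Untreated library 2 was low in *Cxcr2* (134 CPM), *Csf3r* (575 CPM), *Ccrl2* (88.5 CPM), *Ltb4r1* (1.62 CPM), *Clec4d* (117 CPM), *Cd80* (23.3 CPM), *Ceacam10* (1.62 CPM), *Pglyrp1* (14.8 CPM) and *G6pdx* (39.3 CPM). Untreated library 4 was low in *Cybb* (42.2 CPM) and high in *Nos2* (8.28 CPM). Untreated library 2, with its high mitochondrial share and its B and T cell transcripts, gave 9 of the 19.

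The combination minus untreated change differed between liver and blood neutrophils of the same animals in 530 genes by the test of that difference. Among the genes named here the log2 change was larger in liver for *Tnnt1* (by 3.89), *Ube2c* (by 3.89), *Cebpe* (by 3.73), *Sept5* (by 3.57), *Krt83* (by 3.52), *Cd177* (by 3.36), *Lyz2* (by 3.19), *Ly6g* (by 3.13), *Ceacam10* (by 2.76), *Lcn2* (by 2.71), *Mmp8* (by 2.60), *Mmp25* (by 2.31), *Ly6c2* (by 2.22), *Tkt* (by 2.18), *Lta4h* (by 2.18), *Cybb* (by 2.08), *G6pdx* (by 2.03), *S1pr4* (by 1.90), *Ltb4r1* (by 1.90), *Lgals3* (by 1.5), *Qsox1* (by 1.48), *Cyba* (by 1.28) and *Hk2* (by 1.07). It was lower in liver for *Fcmr* (-8.85), *Cd3e* (-8.31), *Il7r* (-7.41), *Lck* (-7.39), *Cr2* (-7.35), *Clec9a* (-3.03), *Gclc* (-2.65), *Rpl13* (-2.52), *Gas5* (-2.06), *Icam1* (-1.92), *Pcna* (-1.68) and *Rpl10* (-1.65). The negative values include B and T cell genes held by few untreated liver libraries, and the part of those cells was not tested.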

How the results depend on the processing

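The count of 1288 genes stayed within 1.5 times with RLE factors (1412), no filter (873), no run set term (985), each run as a term (1032) and no Vehicle library (1221). It was 2176 with DESeq2, of which 38.4% were higher against 52.5% with edgeR, and 2176 without the shallow or mixed libraries. It was 518 with the 14 libraries alone, 222 within run set A, 792 without the libraries with over 50% unaligned entries (an alternative chosen after seeing the data), and 0 and 216 within the first and second run of run set A. Leaving out 1 library gave 759 to 1488, with 759 without combination library 3 and 827 without combination library 4. With the title number as a replicate block 736 genes were called. Same-numbered libraries correlated by -0.245 to 0.216 over 6 pairs in their deviations from the group means (mean 0.00182, against 0.00217 for other numbers), so they share only a number.

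Combination minus CXCR2i gave 1 call with DESeq2 and 0 under the other alternatives run. Combination minus aPD1, with 53 calls, gave 24 with RLE factors (which moved the median of all genes from -0.0473 to -0.235), 31 with no filter, 654 with no run set term, 153 with DESeq2 and 17 within run set B. It gave 0 with the replicate block, without the shallow or mixed libraries and without those with over 50% unaligned entries, and 0 to 55 when 1 aPD1 library was left out. The liver minus blood difference, with 530 calls, gave 312 with no liver-specific run set terms, 810 with no filter, 139 in the animals of run set A and 1276 with DESeq2. The cause of these differences was not tested, and the alternatives that left libraries out also held a smaller number of them.

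Over 130 named genes and 27 alternatives, 2749 of 3458 pairs kept their direction and side of the threshold, 643 lost the call, 48 gained one and 18 turned sign, in 4 genes, of which *Asns* alone was called. Leaving out the Vehicle library and leaving out untreated library 3 are the same fit and enter these counts under both names. As log2 fold changes, *Cxcr1* was -0.00689 with RLE factors, -0.0558 with DESeq2, -0.0401 with the 14 libraries alone, -0.30 with run set A, -0.98 with run 1 of run set A, -0.0333 with each run as a term, -0.021 with no Vehicle library and -0.35 with the replicate block. *Asns* was -0.14 with run 1 of run set A. *Krt7* was -0.34 with run 2 of run set A, -0.21 with the shallow or mixed libraries left out and -1.53 with the libraries with over 50% unaligned entries left out. *Cxcr2* was 0.31 with the libraries with over 50% unaligned entries left out. With 1 library left out *Cxcr1* ran from -0.42 to 0.33. Depth limits the least abundant genes, since a count of 0 in combination library 2 allows up to 5.17 CPM.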

Other observations

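These genes and families were chosen after their values were seen and are given as descriptions. *Lta4h*, leukotriene A4 hydrolase, makes leukotriene B4, the ligand of the receptor encoded by *Ltb4r1*. It averaged 321 ± 131 CPM in combination libraries and 35.2 ± 10.3 CPM in untreated ones (SD, n = 8 and 6), with no overlap between the groups (log2 fold change 3.35 ± 0.46, adjusted p = 9.66e-05 with edgeR). It was also higher under the combination than under aPD1 alone (2.54 ± 0.50, adjusted p = 0.0257), was not called against CXCR2i alone (0.70 ± 0.45, adjusted p = 0.917), and its change was larger in liver than in blood by 2.18. A pair of enzyme genes of the pentose phosphate pathway, which makes NADPH, were picked out in the same way, and other genes of the pathway were not examined. *G6pdx*, the first enzyme of the pathway, averaged 601 ± 276 CPM in combination libraries and 148 ± 62.9 CPM in untreated ones (2.12 ± 0.45, adjusted p = 0.00453), and *Tkt*, transketolase, averaged 633 ± 223 CPM in combination libraries and 139.8 ± 65 CPM in untreated ones (2.17 ± 0.37, adjusted p = 0.000886). The groups did not overlap in either gene, and their blood averages were 304 and 266 CPM for *G6pdx* and 255 and 213 CPM for *Tkt* in combination and untreated animals.

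Mitochondrially encoded genes had a negative log2 fold change in 20 of 20 cases and 14 fell (median -2.22). Small nucleolar RNA genes had one in 35 of 40 and 20 fell (median -2.45). Over all genes the median was -0.13 and 5.12% fell. *mt-Nd1* averaged 509 ± 256 CPM in combination libraries and 2872 ± 2626 CPM in untreated ones (-2.66 ± 0.62, adjusted p = 0.00818). Its call was kept in all 14 comparisons that left out a library. As a share of gene counts, mitochondrially encoded genes made up 41.2% in untreated library 2. The other untreated libraries, at 7.80% to 14.4%, lay within the combination range of 4.87% to 14.8%. Within run set A 0 of 16 mitochondrially encoded and 0 of 32 small nucleolar RNA genes were called. Small nucleolar RNA genes summed to 132 to 673 CPM in combination libraries and 232 to 3599 in untreated ones, highest in untreated library 2. The host gene *Gas5* fell too (-1.37 ± 0.25, adjusted p = 0.00125) and was also called within run set A, by -1.45 ± 0.33 (adjusted p = 0.0327). Histone genes, which are made in dividing cells, rose in 7 of 40 cases and fell in 1 (median 1.32), against 5.66% and 5.12% of all genes.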
